A study of Homo sapiens with 16 samples.

Results

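AXIN2, LEF1, TCF7, NKD1, NKD2, NOTUM, SP5, APCDD1 and TNFRSF19 are 9 human genes reported as direct targets of Wnt/beta-catenin signalling. They were taken by name from the 35075 genes of the series, by a rule that uses no measured value. All 9 were found once each by gene name, and 8 of them passed the low-count filter and were tested. SP5 did not pass, so its counts and levels are given, with a test only where no filter was set. RNA of HEK293, a line derived from human embryonic kidney, was sequenced in groups of 4 libraries that overexpressed RNF43 G659fs, RNF43 R117fs, wild-type RNF43 (WT) or GFP, the control. All 4 groups therefore carry an overexpression construct and share the line. The labels name no Wnt or R-spondin treatment. Whether the constructs were stable or transient, and whether cells were 1 clone, is not given in the sources used here.

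In the canonical Wnt pathway, Wnt ligands engage Frizzled and LRP receptors, the destruction complex that degrades beta-catenin is held back, and beta-catenin enters the nucleus and joins LEF/TCF proteins on DNA. Several of the genes switched on in this way feed back on the pathway. AXIN2 rebuilds the destruction complex, NKD1 and NKD2 bind Dishevelled, NOTUM removes the lipid from secreted Wnts, and APCDD1 is a membrane protein that binds Wnts and LRP proteins. LEF1 and TCF7 are themselves DNA-binding partners of beta-catenin, and SP5 is a transcription factor that dampens other Wnt targets. TNFRSF19 is a receptor of the TNF receptor family. RNF43 is a ubiquitin ligase that removes Frizzled from the cell surface. The G659fs frameshift lies after its RING domain and the R117fs frameshift before it.

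RNF43 itself was between 35239 and 47175 CPM (counts scaled to 1000000 per library) in the 4 G659fs libraries, 30191 and 94568 in R117fs, 42146 and 59768 in WT, and 13.1 and 50.3 in GFP. Libraries held 20364357 to 46779570 estimated counts. R117fs replicate 4 stood apart: its genes deviated from the mean of its group's other libraries with an SD of 0.58 on the log2 scale, against 0.27 to 0.41 in the other libraries. These deviations followed the GC content of the transcripts, with a Spearman value of 0.80 over genes. In the other libraries that value ran from -0.62 in R117fs replicate 2 to 0.37 in GFP replicate 1. The means that R117fs replicates 1 to 3 were set against included replicate 4. For R117fs replicate 1 the chi-square statistic against its fellow libraries, divided by its degrees of freedom, was 71.0 to 79.4, where that between replicates 2 and 3 was 5.45. For replicate 4 it was 61.4 and 50.3 against replicates 2 and 3. This sum over genes includes the overexpressed RNF43, whose part in it was not tested. The deviation SD of replicate 1 was 0.39, within the range of the other libraries. All 6 markers reported for HEK293 were over 1 CPM, and their sum ran from 1143 to 1260 CPM in G659fs, 1061 to 1259 in R117fs, 1253 to 1350 in WT and 924.9 to 1076 in GFP. Sums over all libraries ran from 2.49 to 6.96 CPM for 7 blood cell markers, highest in GFP, from 35.8 to 70.7 for 7 fibroblast markers and from 20.6 to 34.4 for 5 gut epithelium markers, lowest in GFP. Most of the fibroblast sum was COL1A1 and most of the gut sum CDX2, while CD3E, HBB and KRT20 were at or near 0. The part of these sums in the results was not tested. Separate cultures are not named in the labels, so p-values cover only how far these libraries differ, and that may be technical.

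The promoter sequences show where the letters bound by LEF/TCF proteins stand in front of these genes. RefSeq promoters on GRCh38.p14, 250 bases before to 50 bases after a start, were at hand for 6 of the 9 genes and 8 starts. They were searched on both strands for the letters of the LEF/TCF core, which are CTTTGAA or, with other last letters, CTTTGAT, then also CTTTGTA and, as the last form searched, CTTTGTT. Of all 35116 promoters in the table, 13.8% held at least 1 match, and of these 8 starts 2 did. SP5 held 3 matches, in the stretch chr2:170715164-170715284, and TCF7 held 1, at its internal start, in the stretch chr5:134123543-134123599. Both genes are on the plus strand. The stretches below run 5′ to 3′, lie before the start and outside annotated exons of the gene, and carry the matches in capitals.
SP5: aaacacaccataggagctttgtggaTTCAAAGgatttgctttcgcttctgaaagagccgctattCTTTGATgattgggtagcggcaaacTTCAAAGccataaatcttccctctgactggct
TCF7: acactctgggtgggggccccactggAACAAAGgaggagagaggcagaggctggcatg
In SP5 the matches began at positions -148, -109 and -84 from the start, and in TCF7 at position -50. The other starts searched, 1 each of LEF1, NKD2 and APCDD1, the first of TCF7 and both of TNFRSF19, held no match in this window, which says nothing of binding elsewhere. The LEF1 start searched (108166301) is not its main one: transcripts that start within 1000 bases of it held 0.81% of LEF1 counts in G659fs, 1.01% in R117fs, 1.13% in WT and 1.68% in GFP, and all 250 bases before it lie in annotated exons.

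Levels were compared between genes per length, as the sum of the deposited TPM (transcripts scaled to 1000000 per library) over a gene's transcripts. Over all 16 libraries LEF1 was highest, at 24.5 ± 1.6 TPM (SD, n = 16), and ran from 21.8 to 26.8. TCF7 followed at 12.8 ± 1.4, with no library as high as the lowest of LEF1. NKD2 was at 9.02 ± 1.31 TPM, AXIN2 at 7.61 ± 1.03, NOTUM at 6.98 ± 1.58 and APCDD1 at 5.29 ± 1.15, and from TCF7 to APCDD1 each gene overlapped the next. TNFRSF19 was at 2.66 ± 0.36 TPM, with every library below the lowest of APCDD1, and overlapped NKD1 at 2.11 ± 0.68. NKD1 has a long main transcript of 17105 bases, which holds 95.6% to 97.6% of its counts in the group means but only 37.7% to 54.4% of its TPM. Its TPM therefore rests in good part on few reads assigned to shorter transcripts. SP5 was lowest in mean, at 0.38 ± 0.54 TPM, and its highest library overlapped NKD1. That library, R117fs replicate 4, had 2.11 TPM on 6 estimated counts, while 12 counts in WT replicate 3 gave 0.25 TPM. The spread of SP5 therefore rests on how few reads were assigned.

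**Figure D1:**
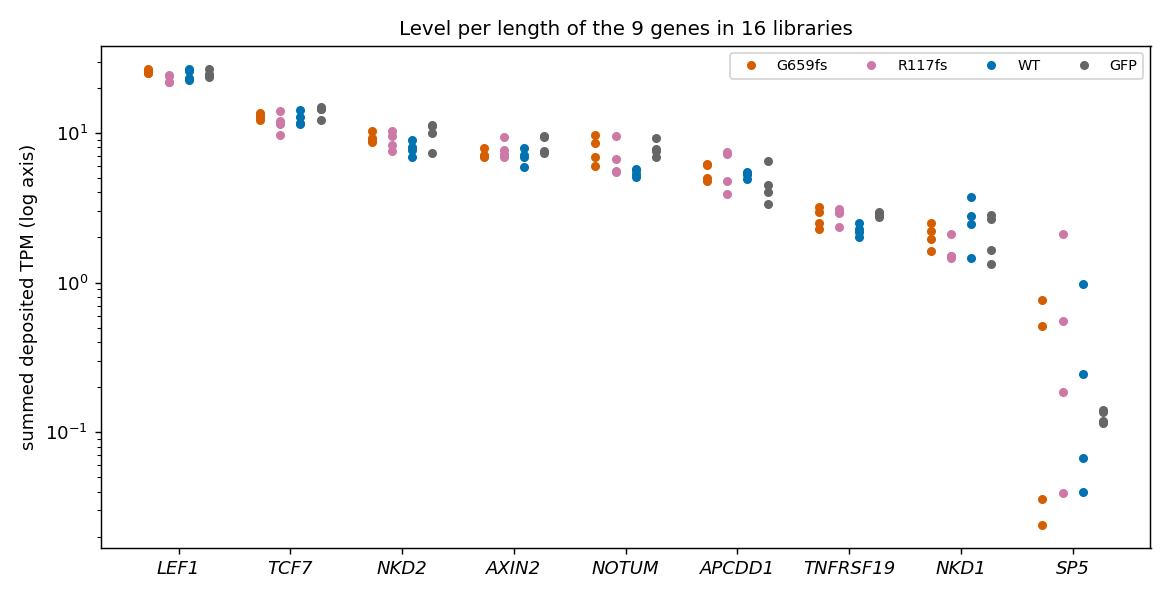
Summed deposited TPM (log axis) of each gene in each of the 16 libraries, with genes in order of their mean and groups by colour. LEF1 lies above TCF7 in every library, and SP5, with 1 to 12 estimated counts per library, is spread from 0.024 to 2.11 TPM.

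The scaffold AXIN2, the gene most often read as a marker of the pathway, showed no change past the threshold in any of the 6 comparisons. AXIN2 (ENSG00000168646; GRCh38 chromosome 17, 65528563 to 65561647, minus strand) had 19.8, 18.2, 18.2 and 20.3 CPM in G659fs replicates 1 to 4, 16.2, 17.0, 22.8 and 19.2 in R117fs, 16.1, 20.1, 16.9 and 19.3 in WT, and 18.7, 23.4, 19.3 and 23.9 in GFP. All groups overlapped, and 2 GFP libraries were the highest of the 16. Against GFP the log2 fold change was -0.16 ± 0.11 for G659fs (SE; edgeR adjusted p = 0.309), -0.20 ± 0.11 for R117fs (edgeR adjusted p = 0.252) and -0.23 ± 0.11 for WT (edgeR adjusted p = 0.141). The unadjusted 95% interval of AXIN2 ran from -0.39 to 0.07 for G659fs, -0.43 to 0.04 for R117fs and -0.46 to -0.003 for WT. Between constructs the AXIN2 values were 0.04 ± 0.11 for G659fs against R117fs, 0.07 ± 0.11 for G659fs against WT and 0.04 ± 0.11 for R117fs against WT, with edgeR adjusted p of 0.868, 0.747 and 0.863.

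The Dishevelled-binding inhibitor NKD1 was higher in G659fs than in GFP, and its paralog NKD2 did not pass in any comparison. NKD1 (ENSG00000140807; chromosome 16, 50548330 to 50649249, plus strand) had 13.1, 13.6, 14.5 and 14.3 CPM in G659fs, 11.3, 11.8, 11.97 and 11.6 in R117fs, 11.2, 12.4, 12.6 and 13.8 in WT, and 10.5, 10.3, 10.8 and 12.4 in GFP. The 4 G659fs libraries lay above all GFP and all R117fs libraries, while WT overlapped each of the other groups. NKD1 rose 1.26-fold in G659fs against GFP, a log2 fold change of 0.33 ± 0.08 (edgeR adjusted p = 0.00551), and 1.19-fold against R117fs, at 0.25 ± 0.08 (edgeR adjusted p = 0.0425). The rise against GFP held in all 16 fits that left out 1 library and under all 7 other settings. The rise against R117fs held without GFP replicate 4, WT replicate 1, WT replicate 4 or R117fs replicate 4, and was lost without any of the other 12 libraries, with edgeR adjusted p of 0.0506 to 0.124. Against GFP, NKD1 was at 0.08 ± 0.08 in R117fs (edgeR adjusted p = 0.543) and at 0.18 ± 0.08 in WT (edgeR adjusted p = 0.111). The difference of G659fs from WT was 0.15 ± 0.08 (edgeR adjusted p = 0.269), which did not pass.

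NKD2 (ENSG00000145506; chromosome 5, 1008829 to 1038943, plus strand) had 8.43, 8.65, 8.67 and 9.12 CPM in G659fs, 6.93, 8.21, 7.77 and 11.3 in R117fs, 6.37, 8.86, 7.62 and 7.75 in WT, and 8.28, 8.06, 5.96 and 8.49 in GFP. All groups overlapped, with R117fs replicate 4 the highest library and GFP replicate 3 the lowest. The log2 fold change of NKD2 against GFP was 0.19 ± 0.14 in G659fs, 0.13 ± 0.14 in R117fs and 0.002 ± 0.14 in WT (edgeR adjusted p = 0.358, 0.571 and 0.994). Its unadjusted 95% intervals, -0.11 to 0.48, -0.17 to 0.43 and -0.29 to 0.30, leave room for changes in both directions. Between constructs NKD2 differed by 0.05 to 0.18 (edgeR adjusted p 0.461 to 0.845).

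NOTUM, the secreted Wnt deacylase, had the widest spread of the 8 tested genes and fell in WT. NOTUM (ENSG00000185269; chromosome 17, 81952507 to 81961840, minus strand) had 8.33, 10.5, 11.2 and 9.29 CPM in G659fs, 6.57, 6.96, 7.56 and 11.2 in R117fs, 5.94, 7.14, 6.74 and 7.29 in WT, and 8.63, 10.1, 7.53 and 10.7 in GFP. Every WT library lay below every GFP and every G659fs library. The coefficient of variation over the 16 libraries was 21.0%, against 7.79% to 14.9% for the other 7 tested genes. NOTUM fell by 0.44 ± 0.15 on the log2 scale in WT against GFP (edgeR adjusted p = 0.0459) and rose 1.46-fold in G659fs against WT, a log2 fold change of 0.54 ± 0.15 (edgeR adjusted p = 0.0403). Both values are close to the threshold. The WT call held without GFP replicate 3, R117fs replicate 1, 2 or 4 or G659fs replicate 1 and was lost without any of the other 11 libraries, with edgeR adjusted p of 0.0514 to 0.147. The call for G659fs against WT was lost without any WT library or without G659fs replicate 2, 3 or 4 (edgeR adjusted p 0.0542 to 0.153). Against GFP, NOTUM was at 0.10 ± 0.15 in G659fs (edgeR adjusted p = 0.657), and R117fs against WT gave 0.22 ± 0.16 (edgeR adjusted p = 0.387).

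In R117fs, the value of NOTUM moved with the libraries kept. With all libraries the log2 fold change against GFP was -0.22 ± 0.15 (edgeR adjusted p = 0.358), and without R117fs replicate 4 it was -0.40 with an edgeR adjusted p of 0.0295. Without replicate 1 it was -0.12 (edgeR adjusted p = 0.655), and without both -0.34 (0.106). G659fs against R117fs was at 0.32 ± 0.15 (edgeR adjusted p = 0.160), at 0.51 without replicate 4 (0.00595), 0.22 without replicate 1 (0.359) and 0.46 without both (0.0246). R117fs against WT was at 0.04 without replicate 4 (edgeR adjusted p = 0.890) and 0.32 without replicate 1 (0.186). Replicate 4 was the highest of all 16 for NOTUM and NKD2, and transcripts of these genes have the highest GC content of the 8 tested, 66.5% and 67.2%, against 44.2% to 56.5% for the other tested members. With the GC trend of each library removed NOTUM was at -0.38 in R117fs against GFP (edgeR adjusted p = 0.0229) and NKD2 at -0.03 (edgeR adjusted p = 0.883).

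APCDD1, the membrane inhibitor, did not differ past the threshold in any comparison. APCDD1 (ENSG00000154856; chromosome 18, 10454628 to 10489948, plus strand) had 5.57, 5.17, 6.07 and 4.97 CPM in G659fs, 6.37, 4.53, 4.09 and 5.70 in R117fs, 5.24, 5.04, 5.12 and 5.15 in WT, and 5.17, 5.04, 4.18 and 4.62 in GFP. All groups overlapped, and WT was the tightest, with an SD of 0.085 CPM. Against GFP the log2 fold change of APCDD1 was 0.20 ± 0.12 in G659fs, 0.14 ± 0.13 in R117fs and 0.12 ± 0.12 in WT (edgeR adjusted p = 0.244, 0.483 and 0.540). With 1 library left out the R117fs value ran from 0.01, without R117fs replicate 1, to 0.22, and without R117fs replicates 1 and 4 it was -0.10. Between constructs it differed by 0.03 to 0.09 (edgeR adjusted p 0.718 to 0.912).

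**Figure D2:**
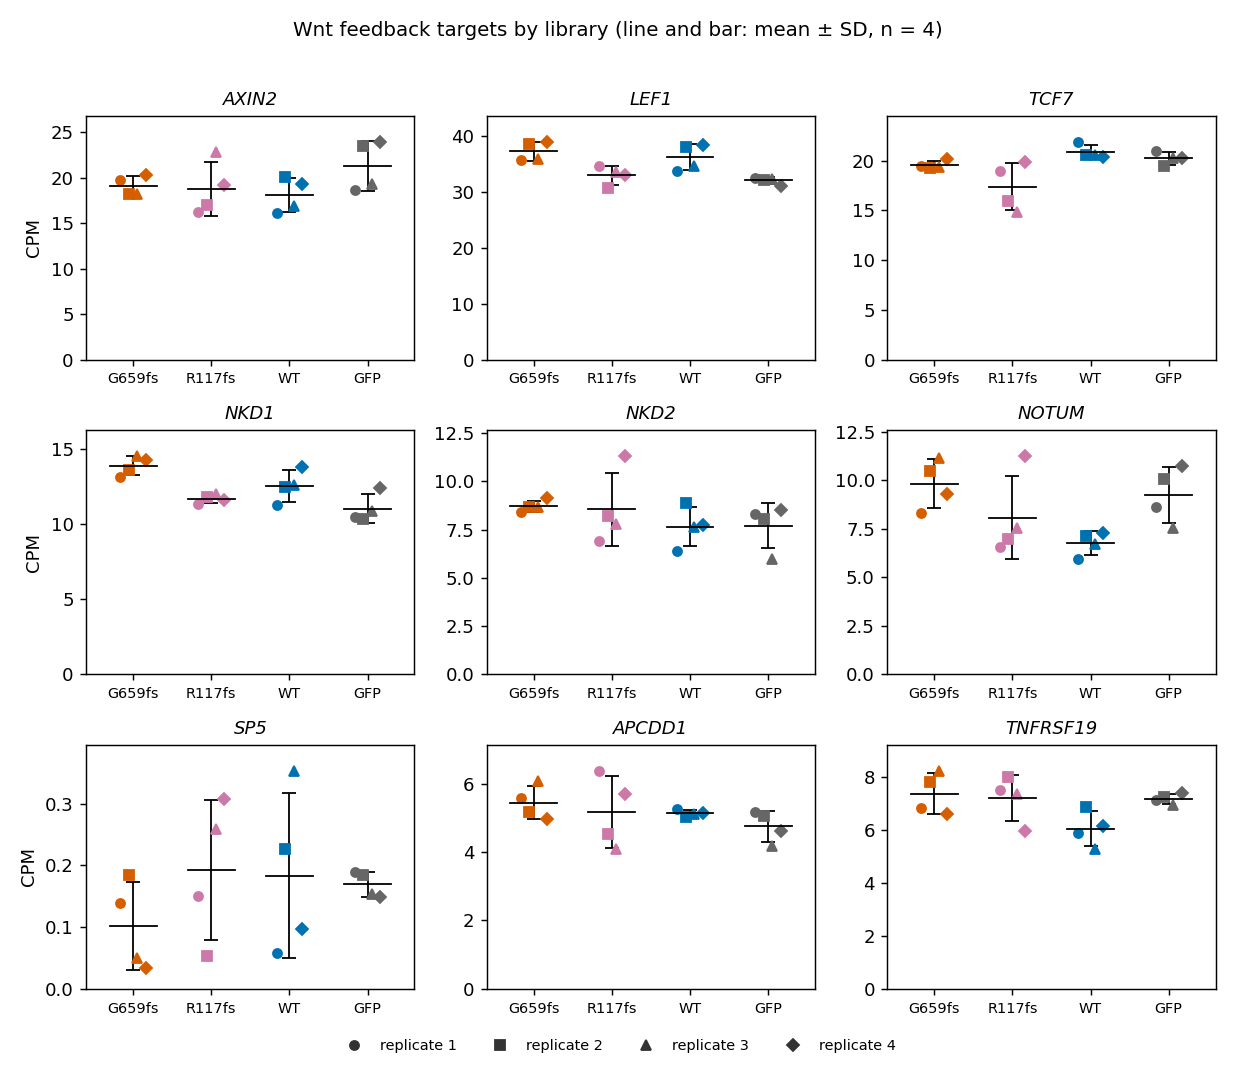
CPM of each of the 9 genes (vertical axes from 0) in the G659fs, R117fs, WT and GFP libraries, with 1 marker shape per replicate number and lines and bars for the mean and SD of 4. The NKD1 values of G659fs lie above those of R117fs and GFP, and R117fs replicate 4 is highest for NKD2 and NOTUM. For NOTUM, WT is lowest in mean and lies below all G659fs and GFP libraries, but overlaps R117fs.

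Of the DNA-binding partners of beta-catenin, LEF1 was higher in G659fs than in GFP. LEF1 (ENSG00000138795; chromosome 4, 108047545 to 108168956, minus strand) had 35.7, 38.6, 36.0 and 39.0 CPM in G659fs, 34.8, 30.8, 33.6 and 33.1 in R117fs, 33.8, 38.0, 34.7 and 38.4 in WT, and 32.6, 32.3, 32.4 and 31.2 in GFP. All G659fs and all WT libraries lay above all GFP libraries, and R117fs overlapped both WT and GFP. LEF1 rose 1.16-fold in G659fs, a log2 fold change of 0.22 ± 0.06 (edgeR adjusted p = 0.0179). This call was lost without GFP replicate 4 (edgeR adjusted p = 0.0547), G659fs replicate 2 (0.0573) or G659fs replicate 4 (0.0569) and with effective transcript length as an offset (0.0594). In WT LEF1 was at 0.17 ± 0.06 (edgeR adjusted p = 0.059), which passed without WT replicate 1 (0.0469) or R117fs replicate 4 (0.0192). In R117fs it was at 0.04 ± 0.06 (edgeR adjusted p = 0.727). G659fs against R117fs gave 0.18 ± 0.06 for LEF1 (edgeR adjusted p = 0.0698, and 0.0378 without R117fs replicate 4), and the groups did not overlap. G659fs against WT gave 0.04 ± 0.06 and R117fs against WT -0.13 ± 0.06 (edgeR adjusted p = 0.736 and 0.193). In TPM, which takes transcript length into account, LEF1 was at 25.7 ± 0.8 in G659fs and 24.8 ± 1.4 in GFP (SD, n = 4 each), and the groups overlapped.

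TCF7 was lowest in R117fs, and whether this passed depended on the libraries kept and on the settings. TCF7 (ENSG00000081059; chromosome 5, 134114711 to 134151865, plus strand) had 19.4, 19.3, 19.3 and 20.2 CPM in G659fs, 18.9, 15.9, 14.9 and 19.8 in R117fs, 21.9, 20.5, 20.6 and 20.4 in WT, and 21.0, 19.4, 20.2 and 20.2 in GFP. R117fs replicates 2 and 3 were below all other libraries, while replicates 1 and 4 lay nearer the other groups. Replicate 4 stood apart in its deviation over genes, and replicate 1 only in the chi-square statistic. TCF7 was at -0.22 ± 0.08 in R117fs against GFP (edgeR adjusted p = 0.0743) and at -0.26 ± 0.08 against WT, where the groups did not overlap (edgeR adjusted p = 0.05004). Without R117fs replicate 4 these were -0.27 (edgeR adjusted p = 0.0105) and -0.32 (0.00862), and without R117fs replicate 1 -0.26 (0.0419) and -0.30 (0.0218). Without both they were -0.37 (edgeR adjusted p = 5.76e-04) and -0.42 (3.20e-04). That setting was chosen after seeing the data and keeps only R117fs replicates 2 and 3. These are the lowest for TCF7, so a larger fall was bound to follow and adds no support. With all libraries, TCF7 passed against GFP and WT in DESeq2 (adjusted p = 0.0413 and 0.0182) and with GC trends removed (edgeR adjusted p = 0.00218 and 0.00255), and against WT with a replicate block (0.0346). G659fs against R117fs was at 0.17 ± 0.08 for TCF7 (edgeR adjusted p = 0.169, and 0.0286 without R117fs replicate 4), and at 0.32 without replicates 1 and 4 (0.00140). G659fs and WT differed from GFP by -0.05 ± 0.08 and 0.04 ± 0.08 (edgeR adjusted p = 0.685 and 0.729). G659fs against WT was at -0.09 ± 0.08 (edgeR adjusted p = 0.515), with no overlap between the groups.

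SP5, the Sp-family factor, was barely counted (ENSG00000204335; chromosome 2, 170715351 to 170718078, plus strand). Its estimated counts were 4, 8, 2 and 1 in G659fs, 6, 2, 5 and 6 in R117fs, 2, 10, 12 and 3 in WT, and 5, 5, 5 and 4 in GFP. These add up to 15, 19, 27 and 19 counts in the 4 groups, and no difference was detectable at this depth. Without the low-count filter the edgeR adjusted p of SP5 ran from 0.541 to 1 over the 6 comparisons.

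TNFRSF19, the TNF-family receptor, was lower in WT than in the other groups in mean, without passing the threshold. TNFRSF19 (ENSG00000127863; chromosome 13, 23570370 to 23676104, plus strand) had 6.83, 7.81, 8.22 and 6.60 CPM in G659fs, 7.50, 7.997, 7.36 and 5.96 in R117fs, 5.88, 6.87, 5.27 and 6.16 in WT, and 7.11, 7.25, 6.94 and 7.37 in GFP. WT lay below GFP in all libraries and overlapped G659fs and R117fs. The log2 fold change in WT was -0.24 ± 0.11 against GFP (edgeR adjusted p = 0.118). Set against WT, G659fs was at 0.29 ± 0.10 (edgeR adjusted p = 0.104) and R117fs at 0.26 ± 0.11 (edgeR adjusted p = 0.126) for TNFRSF19, and both passed without R117fs replicate 4 (0.0306 and 0.0415). G659fs and R117fs were at 0.05 ± 0.10 and 0.02 ± 0.11 against GFP (edgeR adjusted p = 0.774 and 0.911).

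Calls among the 8 tested genes, 0 to 2 per comparison by edgeR with all libraries, were set beside the shares of all genes called. In G659fs against GFP 2 rose and 0 fell, where 25.4% of all 16787 tested genes were called, 11.6% higher and 13.8% lower, and 2 did not overlap (37.9% of all genes). In R117fs against GFP 0 were called by edgeR, where 15.6% of all genes were, 7.04% higher and 8.57% lower. There DESeq2 called 1 of the 8 (TCF7) and 19.5% of the 16787 genes, and 0 did not overlap (16.5%). In WT against GFP 0 rose and 1 fell, where 21.5% of all genes were called, 9.85% higher and 11.6% lower, and 3 did not overlap (33.8%). An unadjusted edgeR p under 0.05 was found for 2 of the 8 in G659fs (37.1% of all genes), 1 in R117fs (30.0%) and 5 in WT (34.1%). The 3 comparisons share the GFP libraries.

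Between constructs, G659fs against R117fs gave 1 risen and 0 fallen, where 14.4% of all genes were called, 6.35% higher and 8.02% lower. All 8 log2 fold changes were above 0, at 0.02 to 0.32, and the share of all genes above 0 was not counted. Those of AXIN2, NKD2, APCDD1 and TNFRSF19, at 0.02 to 0.06, turned below 0 in some fits with 1 library left out. G659fs against WT gave 1 risen and 0 fallen, where 5.68% of all genes were called, 2.32% higher and 3.35% lower. R117fs against WT gave 0 by edgeR, where 8.11% of all genes were called, 4.50% higher and 3.62% lower, and DESeq2 called 1, again TCF7, and 12.1% of all genes. An unadjusted edgeR p under 0.05 was found for 3 of the 8 in G659fs against R117fs (29.5% of all genes), 2 in G659fs against WT (22.5%) and 3 in R117fs against WT (25.9%). Groups did not overlap for 2, 2 and 1 of the 8 genes in these 3 comparisons, against 18.1%, 26.8% and 15.3% of all genes. The median absolute log2 fold change of the 8 was 0.17 in G659fs, 0.14 in R117fs and 0.18 in WT against GFP, beside 0.18, 0.16 and 0.18 over all tested genes. With its sign, the median of the 8 was 0.14, 0.03 and 0.02 in these comparisons, beside 0.00003, -0.01 and 0.001 over all genes. Between constructs it was 0.11 in G659fs against R117fs, 0.12 in G659fs against WT and 0.03 in R117fs against WT, beside 0.005, -0.003 and -0.01 over all genes.

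Leaving out R117fs replicate 4 moved these counts. Against GFP the calls were then 2 in G659fs (39.4% of 17053 genes), 2 in R117fs (21.7%) and 2 in WT (36.0%). Between constructs they were 4 in G659fs against R117fs (23.5%), 2 in G659fs against WT (20.7%) and 2 in R117fs against WT (9.48%).

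**Figure D3:**
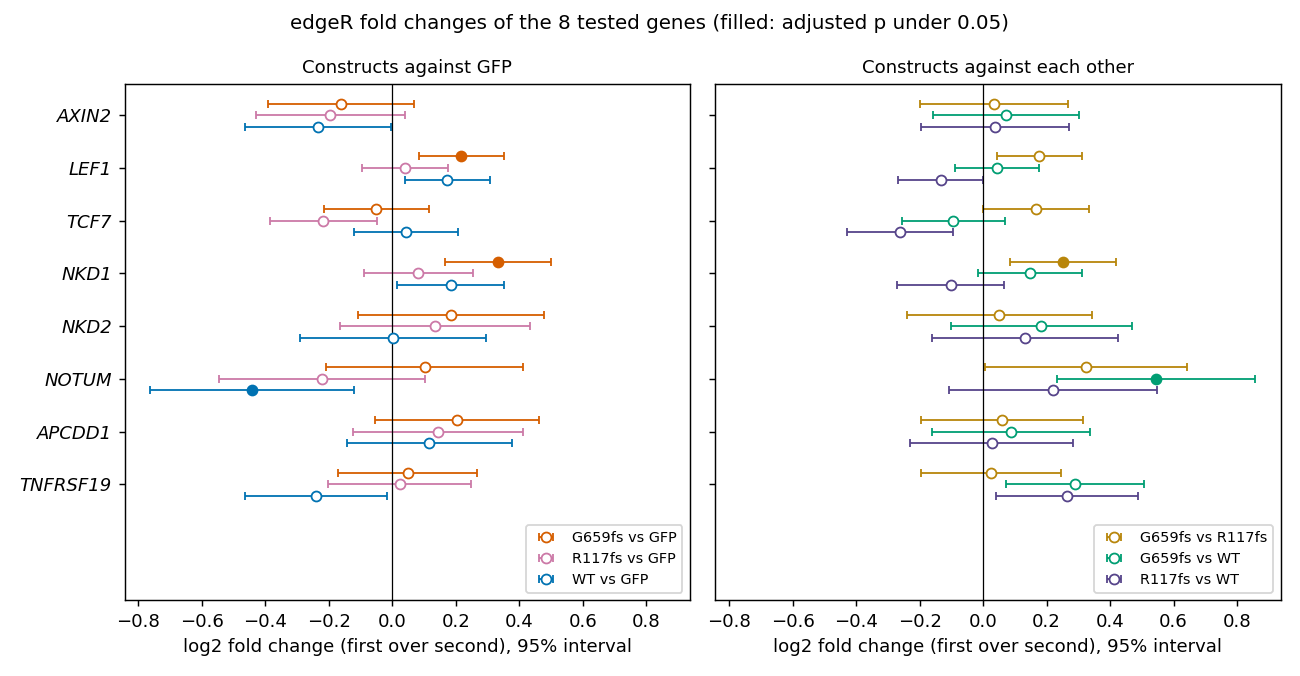
Log2 fold changes (horizontal axis, first group over second) of the 8 tested genes with unadjusted 95% intervals, for the constructs against GFP (left) and against each other (right), filled where the edgeR adjusted p is under 0.05. The 5 filled points are LEF1 and NKD1 in G659fs against GFP, NOTUM in WT against GFP, NKD1 in G659fs against R117fs and NOTUM in G659fs against WT.

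Estimated counts were also divided among annotated transcripts. LEF1 and TCF7 are known to give short proteins without the beta-catenin binding part when transcription begins inside the gene. For TCF7, transcripts that start within 1000 bases of the first RefSeq start (134115613) held 98.1% ± 0.4 of its counts in G659fs, 98.7% ± 0.7 in R117fs, 98.8% ± 0.9 in WT and 95.8% ± 2.5 in GFP (SD, n = 4 each). The 1 measured transcript at the internal start (134123618), whose promoter stretch is printed above, held 0.10% ± 0.19 in G659fs and was listed at 0 in all libraries of R117fs, WT and GFP. The main TCF7 transcript TCF7-203 held 63.5% ± 4.9 in G659fs, 69.5% ± 2.7 in R117fs, 60.5% ± 9.5 in WT and 60.6% ± 6.3 in GFP.

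For LEF1 the protein-coding LEF1-202, of 3477 bases, held 55.4% ± 5.4 in G659fs, 53.4% ± 2.7 in R117fs, 50.6% ± 5.6 in WT and 49.1% ± 4.7 in GFP. LEF1-205, annotated as a processed transcript that starts deep inside the gene, held 16.6% ± 3.4, 12.8% ± 8.6, 18.1% ± 2.0 and 19.7% ± 3.7 in G659fs, R117fs, WT and GFP. Its R117fs libraries reached from 0 in replicate 4 to 18.5%.

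For TNFRSF19, transcripts near the second RefSeq start (23579360) held 83.3% ± 3.8 of counts in G659fs, 83.2% ± 5.7 in R117fs, 88.3% ± 12.1 in WT and 87.3% ± 6.4 in GFP. AXIN2 was divided mainly between AXIN2-201 and AXIN2-209, which share a start. AXIN2-202, which starts at 65558729, held 5.61% ± 3.06 of AXIN2 counts in G659fs, 18.8% ± 9.7 in R117fs, 8.19% ± 4.87 in WT and 7.35% ± 4.80 in GFP. The R117fs libraries ran from 11.5% to 33.1%, highest in replicate 4, and lay above all G659fs and GFP libraries, which reached 7.52% and 10.2%, while WT reached 14.6% and overlapped them. Of 156 pairs of groups over the 26 member transcripts with at least 5% of their gene's counts in a group, 10 did not overlap. That is close to the 6.54% of such pairs over 36102 transcripts of all genes with a mean count of 100 or more. The 10 pairs belong to AXIN2-202, NKD2-203, NKD2-204, NOTUM-203 and NOTUM-204. Of these, NKD2-203, NKD2-204 and NOTUM-204 are annotated as retained introns. NKD2-204 held 3.92% to 6.11% of NKD2 counts in G659fs and 4.82% to 6.54% in WT, against 8.12% to 10.3% in GFP. NOTUM-204 held 1.48% to 2.35% of NOTUM counts in G659fs, 4.04% to 4.595% in R117fs, 2.04% to 3.59% in WT and 3.92% to 6.66% in GFP. NOTUM had 146 to 458 estimated counts per library, so shares this small rest on few reads. The other pairs were R117fs above WT for NKD2-203 and WT above GFP for NOTUM-203. Shares of transcripts with common exons rest on estimation, and no test was made on them.

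**Figure D4:**
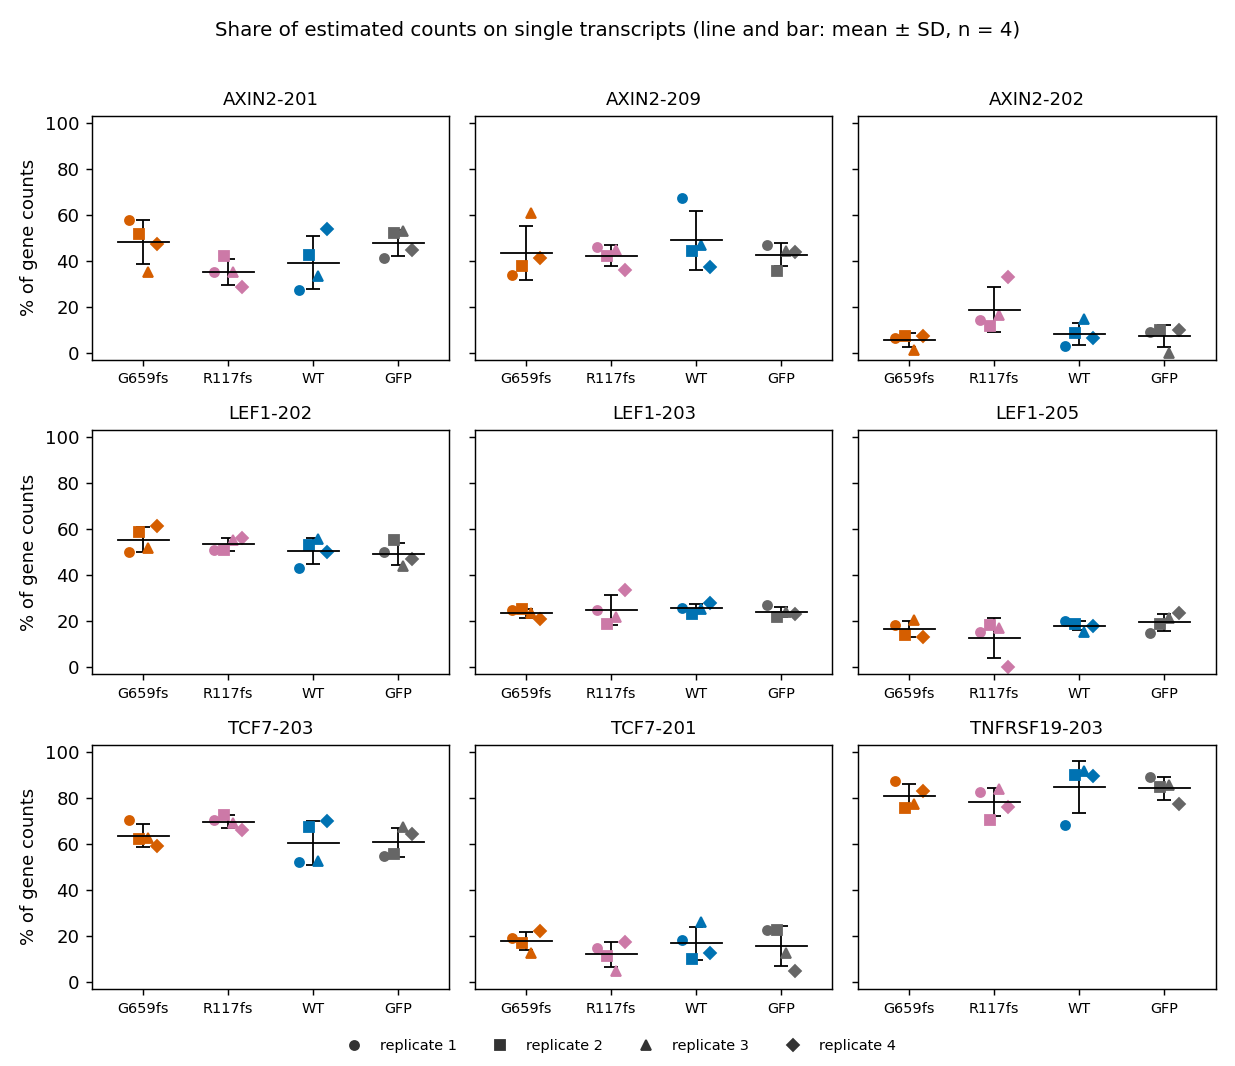
Percent of a gene's estimated counts on single transcripts of AXIN2, LEF1, TCF7 and TNFRSF19, by group and library, with lines and bars for mean and SD of 4. AXIN2-202 ran from 11.5% to 33.1% in R117fs, above all G659fs and GFP libraries, which reached 7.52% and 10.2%. Over transcripts of all genes, 6.54% of pairs of groups did not overlap.

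Other genes of the pathway were counted from lists. Among 12 tested genes of the destruction complex, 1 rose and 3 fell in G659fs, 0 rose and 3 fell in R117fs, and 0 rose and 2 fell in WT, all against GFP. Of all genes, 25.4%, 15.6% and 21.5% were called in these 3 comparisons, the shares against which this and the next 2 lists are read. BTRC, which hands beta-catenin to the proteasome, fell in all 3, by 0.34 ± 0.08, 0.43 ± 0.08 and 0.26 ± 0.08 on the log2 scale (edgeR adjusted p = 0.00351, 0.00119 and 0.0188). CTNNB1, beta-catenin itself, had 308 ± 24 CPM in R117fs, against 379 ± 4 in GFP (SD, n = 4 each), a fall by 0.30 ± 0.06 (edgeR adjusted p = 0.00178). It was 1.13-fold higher in G659fs than in R117fs (edgeR adjusted p = 0.0431). Without R117fs replicate 4 the list gave 1 risen and 4 fallen in G659fs, 0 and 4 in R117fs, and 0 and 5 in WT, in a fit that called 39.4%, 21.7% and 36.0% of all genes.

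Among 7 genes of receptor relay and Wnt secretion, 1 passed against GFP in each construct. DVL2, a Dishevelled, fell by 0.32 ± 0.09 in G659fs, PORCN, which puts the lipid on Wnts, rose by 0.33 ± 0.11 in R117fs, and the co-receptor LRP6 fell by 0.32 ± 0.09 in WT (edgeR adjusted p = 0.0157, 0.0446 and 0.0171). Of 15 nuclear partners, 1 rose and 1 fell in G659fs, 0 and 1 in R117fs, and 0 and 4 in WT. The co-repressor TLE1 rose by 0.30 ± 0.07 in G659fs (edgeR adjusted p = 0.00334). BCL9L, a co-activator of beta-catenin, fell by 0.52 ± 0.11 in WT and was 1.40-fold higher in R117fs than in WT (edgeR adjusted p = 0.00264 and 0.0145). TCF7L2, another DNA-binding partner, fell by 0.24 ± 0.07 in R117fs and by 0.19 ± 0.07 in WT (edgeR adjusted p = 0.0231 and 0.0478). Without R117fs replicate 4 the receptor list gave 3 risen and 2 fallen in G659fs, 0 and 1 in R117fs, where PORCN no longer passed, and 0 and 2 in WT, and the nuclear list 3 and 4, 0 and 3, and 1 and 6, beside the same 39.4%, 21.7% and 36.0% of all genes.

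Among 18 tested genes of 20 other reported Wnt targets, 6 rose and 0 fell in G659fs against GFP, 1 and 0 in R117fs, and 4 and 0 in WT. The shares of all genes that rose were 11.6%, 7.04% and 9.85%. The proto-oncogene MYC, a transcription factor, had 248 ± 14 CPM in G659fs, 212 ± 19 in R117fs, 236 ± 39.5 in WT and 168 ± 8 in GFP (SD, n = 4 each). Its log2 fold changes were 0.56 ± 0.09, 0.34 ± 0.09 and 0.49 ± 0.09 (edgeR adjusted p = 3.99e-04, 0.0219 and 0.00137). The cyclin gene CCND1 rose 1.67-fold in G659fs and 1.35-fold in WT (edgeR adjusted p = 0.00142 and 0.0431). DKK1, a secreted inhibitor of LRP co-receptors, averaged 3.10 ± 0.46 CPM in the G659fs libraries and 1.42 ± 0.30 CPM in the GFP libraries, and rose 2.20-fold (edgeR adjusted p = 0.00122). The median log2 fold change of the 18 genes was 0.28 in G659fs, 0.12 in R117fs and 0.11 in WT, beside 0.00003, -0.01 and 0.001 over all genes. Without R117fs replicate 4 the list gave 9 risen and 1 fallen in G659fs, 2 and 0 in R117fs and 3 and 1 in WT. That fit called 39.4%, 21.7% and 36.0% of all genes. In WT fewer genes of the list rose than with all libraries, though more of all genes were called. Several of these genes also answer to other pathways, and the lists were chosen with results of these data known.

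Genes whose log2 CPM ran most like a member's were ranked by Pearson r over the 16 libraries, as a description only, since all points share libraries, groups and depth. The closest to AXIN2 were GYS2 (r = 0.92) and PYGM (0.89), to LEF1 MARCKSL1 (0.94) and ZNF521 (0.93), to TCF7 COMMD4 (0.96) and ZC3H4 (0.94), and to NKD1 FAM89A (0.92) and AFAP1 (0.92). For NKD2 they were SHB (0.94) and TBRG4 (0.92), for NOTUM LRP10 (0.96) and MAP3K3 (0.95), for APCDD1 KDELR1 (0.88) and the pseudogene RPL5P22 (0.85), and for TNFRSF19 EPHA5 (0.89) and ARHGAP29 (0.84). No member was among the 2 closest genes of another member. With only 2 places ranked out of all 16787 tested genes, that does not show whether members ran together. Between members r ran from -0.50 for TCF7 and TNFRSF19 to 0.73 for LEF1 and NKD1.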

How the data were processed

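Total RNA from 16 HEK293 libraries was purified on RNeasy columns with DNase I and made into NEBNext libraries, per the labels' protocols. The authors deposited, per transcript, an estimated count, a TPM value and an effective length, made with kallisto 0.45.1 on GRCh38 per the submitters' processing notes; the annotation release, read length, strand setting and RNA selection are not given in the sources used here. Deposited TPM values were summed per gene and used for levels only.

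Transcripts were matched by identifier to GENCODE 29, and 162453 of 178136 (91.2%) matched. The rest held 1.90% to 2.22% of a library's counts and were left out. Estimated counts were summed per gene and rounded. Of 28028 genes with a count above 0 after rounding, 16787 passed filterByExpr. One edgeR 4.0.16 fit of all libraries in R 4.3.3 (TMM, robust dispersions, glmQLFit in its newer form, glmQLFTest) tested 6 comparisons with Benjamini-Hochberg adjustment over all genes. A gene was called at an adjusted p under 0.05, and SE came from the fold change and F. CPM used TMM library sizes. Both the counts and the spread between libraries set the precision of the fold changes. The procedure was tested on simulated data. Other settings were DESeq2 1.42.0, its size factors in edgeR, no filter, a replicate block, a length offset, removal of GC trends (lowess), 8 libraries alone and 1 library left out. No replicates were taken for duplicates, since the chi-square statistic over its degrees of freedom was at least 3.53 in every pair. All 9 genes were named whatever their values, list genes only where they passed (from the first 4 by p per list and comparison, of which the text gives examples picked after their values were seen) and the 2 genes most like each member. Members, lists and tests were chosen with earlier results of these data known.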

Additional observations from a re-analysis of the deposited data

Results flagged for a closer look

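In 2 of 36 groups of 4 libraries 1 library was far from the others by Dixon's test, and chance gives about 1 in 20. TCF7 was at 21.9 CPM in WT replicate 1, above the other WT libraries at 20.4 to 20.6. NKD2 was at 5.96 CPM in GFP replicate 3, against 8.06 to 8.49 in the other GFP libraries. Between constructs 1 of the 8 tested genes was called in G659fs against R117fs, 1 in G659fs against WT and 0 in R117fs against WT. Of all genes 14.4%, 5.68% and 8.11% were called in these comparisons. NOTUM differed by 0.54 on the log2 scale between G659fs and WT, and NKD1 by 0.25 between G659fs and R117fs (edgeR adjusted p = 0.0403 and 0.0425). With 1 library left out these 2 calls were lost in 7 and 12 of 16 fits.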

How the results depend on the processing

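The tested genes lay at 4.09 to 39.0 CPM in 4 libraries per group. Of 768 member values with 1 library left out, 702 kept direction and call, 33 lost the call, 12 gained it and 21, all uncalled, turned direction. Of 336 under the other planned settings these were 302, 5, 17 and 12, and of 48 without R117fs replicates 1 and 4, chosen after seeing the data, 35, 1, 8 and 4. Only values called with all libraries had a call to lose. The others counted as kept where they stayed uncalled in the same direction. With 1 library left out, the LEF1 and NKD1 calls in G659fs against GFP were lost in 3 and 0 of 16 fits. NOTUM lost its call in 11 of 16 fits in WT against GFP and in 7 in G659fs against WT. The NKD1 call in G659fs against R117fs was lost in 12 of 16 fits. The cause was not tested.

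Values that turned, on the log2 scale, were NKD2 in WT against GFP at -0.0073 with DESeq2, -0.0014 with its size factors and -0.046 with the length offset. With that offset LEF1 was at -0.014 in R117fs against GFP, and AXIN2, APCDD1 and TNFRSF19 at -0.049, -0.038 and -0.0062 in G659fs against R117fs. With GC trends removed NOTUM was at -0.0019 in G659fs against GFP, NKD2 at -0.027 and -0.038 in R117fs against GFP and WT, APCDD1 at -0.018 in R117fs against WT and TNFRSF19 at -0.0062 in G659fs against R117fs. Without R117fs replicates 1 and 4 APCDD1 was at -0.10 and -0.22 in R117fs against GFP and WT, and AXIN2 and TNFRSF19 at -0.039 and -0.068 in G659fs against R117fs.

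With 1 library left out, G659fs against R117fs ran from -0.040 to 0.14 for AXIN2, -0.055 to 0.19 for NKD2, -0.020 to 0.19 for APCDD1 and -0.043 to 0.077 for TNFRSF19. R117fs against WT ran from -0.063 to 0.12 for AXIN2, -0.10 to 0.11 for APCDD1 and -0.015 to 0.24 for NKD2. Against GFP, NKD2 ran from -0.0063 to 0.24 in R117fs and -0.11 to 0.076 in WT, and TNFRSF19 from -0.0091 to 0.095 in G659fs and -0.028 to 0.096 in R117fs.

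Members called with 1 library left out were 1 to 2 in G659fs, 0 to 2 in R117fs and 0 to 2 in WT against GFP, 0 to 4 in G659fs against R117fs, 0 to 2 in G659fs against WT and 0 to 2 in R117fs against WT. Over all genes the calls then ran from 3067 to 6723, 1455 to 3701, 2222 to 6133, 1320 to 4012, 100 to 3530 and 626 to 2607 in this order.

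DESeq2 called 1 member in R117fs and 2 in WT against GFP, beside 3275 and 4003 of all 16787 genes. Between constructs it called 2 in G659fs against R117fs and 1 in R117fs against WT, beside 3004 and 2031 genes. In G659fs against WT it called 1663 genes, where edgeR called 953. Without the low-count filter 0 members were called in WT against GFP and in G659fs against R117fs, beside 3071 and 1899 of 28028 genes. In G659fs against WT 601 genes were then called. The length offset gave 1 member in G659fs and 0 in WT against GFP, beside 4315 and 3653 genes. Removing GC trends gave 2 in R117fs and 3 in WT against GFP, 4 in G659fs against R117fs, 2 in G659fs against WT and 2 in R117fs against WT, with 6793, 4630 and 6344 genes in G659fs, R117fs and WT against GFP, 4930 in G659fs against R117fs, 3385 in G659fs against WT and 2998 in R117fs against WT. The 8 libraries of a comparison alone gave 2 members in WT against GFP, 0 in G659fs against R117fs and 2 in G659fs against WT, with 6993, 588, 5919, 796, 4660 and 154 genes in the order above. Without R117fs replicates 1 and 4 there were 1 member in R117fs and 2 in WT against GFP. Between constructs there were 3 in G659fs against R117fs, 2 in G659fs against WT and 2 in R117fs against WT. The genes called were 7274, 3924 and 6718 in G659fs, R117fs and WT against GFP, and 4545, 4150 and 3375 between constructs, in the same order.

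Same-numbered libraries deviated together with correlations of -0.06 to 0.16. Libraries of unlike number were not compared, so these values cannot show whether numbers pair libraries. A replicate block called 4564, 2901 and 3940 genes in G659fs, R117fs and WT against GFP, beside 4258, 2620 and 3603 without it. It called 2737 beside 2412 in G659fs against R117fs, 1343 beside 953 in G659fs against WT and 1841 beside 1362 in R117fs against WT. A replicate block gave 1 member in R117fs against WT, TCF7 at -0.27 (edgeR adjusted p = 0.0346), and changed no other count of members by over 1.5 times.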
